A study of Mus musculus with 8 samples.

Results

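Desmosomes are the cell junctions that tie the keratin filaments of neighboring epithelial cells together. Desmogleins (Dsg) and desmocollins (Dsc) are the cadherins that bridge the gap between the cells, and plakins link the junction and other membrane sites to keratin. In the epidermis the isoforms are distributed by layer, with Dsg2, Dsg3 and Dsc3 in the deeper layers and Dsg1 and Dsc1 toward the surface. Periplakin (Ppl) and envoplakin (Evpl) are cross-linked into the envelope of differentiating cells. Levels of 10 of these genes were followed in mouse tongue epithelial cells: the desmocollins Dsc1, Dsc2 and Dsc3, the desmogleins Dsg1a, Dsg1b, Dsg2 and Dsg3, and the plakins Ppl, Evpl and epiplakin (Eppk1). They were chosen by gene symbol among the 32285 genes of the deposited matrices, and all 10 passed the filter on low counts.

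Ppl and Evpl were higher, and Dsg2 lower, in epithelial cells carrying an active YAP transgene. Of these calls only that of Ppl held whichever single library was left out. In cells carrying both transgenes of the study (EY) Dsg1a and Eppk1 were also lower than in controls. Both of these calls were lost on leaving out some single libraries. Eppk1 was lower than in controls in cells carrying E6-E7 alone as well, a difference that was not called. Dsg3 overlapped between EY and controls, and its share of desmoglein transcripts was highest in EY. Among transcripts of the plaque proteins that anchor these cadherins, Pkp2 was the 1 called.

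Viable cells sorted from tongue epithelium on day 15 of induction were sequenced one by one with a droplet method that reads transcript 3′ ends, in 8 libraries that form 4 groups of 2. All mice, controls included, carried Krt14-CreERT and LSL-rtTA, and by the study's methods a tetON_H2B-GFP reporter. Group N had nothing more, group E added tetON_E6-E7 (the human papillomavirus oncogenes), group Y added tetON_YAP1S127A (a YAP that escapes inhibitory phosphorylation), and group EY had both. The mice were littermates of 8 to 16 weeks given tamoxifen into the tongue in 3 doses and doxycycline in the chow, and since the Krt14 promoter drives Cre, the transgenes were switched on in basal cells and their progeny and not in every cell sequenced. N2 is titled with more than 1 animal number and could be a pool, and the labels name no batches.

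Epithelial cells were those in which Krt5, Krt14, Krt15, Krt13 and Krt6a made up at least 0.5% of UMIs (unique molecular identifiers, 1 for each captured transcript) and Ptprc, the pan-leukocyte gene, was at 0, among cells within the study's limits on genes, UMIs and mitochondrial reads. This left 12957 of 42550 barcodes, from 170 in EY1 to 4055 in E1, with median UMIs per cell between 12575 and 23570. All 10 epithelial markers, Epcam, Cdh1 and Trp63 among them, were detected in every library, and endothelial, muscle and melanocyte marker sums stayed at or under 1.22 CPM, the UMIs of a gene scaled to a fixed library total. Fibroblast markers other than Dcn summed to at most 5.69 CPM, whereas Dcn ranged from 28.4 in EY2 to 1274 in N2. Gland or duct markers summed to 26.1 CPM in Y2 and up to 632 CPM in N2, and red cell markers to 1.73 CPM in EY2 and up to 679 CPM in N2. A UMI of Wfdc18, Msln or Psca was found in 16.6% of N2 cells and in 1.90 to 9.99% of cells elsewhere. Yap1 lay between 31.5 and 46.1 CPM in the 4 libraries without it and between 174 and 447 CPM in the 4 with it. EY1 stood apart: it held few cells, 17.6% of them had no UMI of any of the 10 genes against 0.638 to 1.99% elsewhere, and its 12 immune markers summed to 2223 CPM. That sum also moved with the YAP transgene: it was 45.0 to 66.0 CPM in N and E, 209 and 112 CPM in the Y pair and 639 CPM in EY2. In EY most of it was S100a8 and S100a9, at 1148 and 906 CPM in EY1 and 370 and 221 CPM in EY2. Whether those UMIs came from immune or epithelial cells was not tested. The part of the sum in the YAP and EY differences was not tested beyond the settings given at the end. For the 10 genes in all epithelial cells, calls that rest on EY are therefore given with and without EY1. Calls of other genes are given from all libraries only. Where leaving out a library leaves a group with 1, the spread comes from the other groups and the lone library is assumed to vary like them. Of 42314 distinct barcodes, 235 occurred in more than 1 library.

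The cadherin genes lie side by side on chromosome 18 of GRCm38, within 644 kb from 19960930 to 20604521, where Dsc3, Dsc2 and Dsc1 run along the minus strand and Dsg1a, Dsg1b, Dsg3 and Dsg2 along the plus strand. Ppl is on chromosome 16 (5086291 to 5132421), Evpl on chromosome 11 (116220559 to 116238077) and Eppk1 on chromosome 15 (76101481 to 76120195), all on the minus strand. Dsg1a and Dsg1b are related copies that share part of their sequence. None of the 911 windows of 90 bases in the last 1000 bases of either transcript occurred in another Dsg1 copy. Over the whole transcripts 26.4% and 35.2% of windows did. The third copy, Dsg1c, and Dsg4 were too low to be tested. Eppk1 shares part of its span with BC024139 on the same strand, and Dsg2 overlaps Gm16090 on the other strand. Whether reads in the span shared with BC024139 could be assigned to 1 of the genes was not tested.

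Among the desmocollins, Dsc3 is a deeper-layer isoform of the epidermis. It measured 339.7 and 398 CPM in the N pair (replicate 1 first, here and for the other genes) and 312 and 337 CPM in the E pair. The Y pair had 309 and 269 CPM and the EY pair 285 and 171 CPM. The 4 libraries with the YAP transgene all lay below the 4 without it, with EY2 the lowest and Y1 next to E1 at the boundary. The fitted difference between libraries with and without YAP was a log2 fold change of -0.43 (SE 0.16), which did not pass the threshold (adjusted p = 0.115). EY against N gave -0.70 (SE 0.24, adjusted p = 0.0748), and -1.08 (adjusted p = 0.0105) without EY1.

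Dsc2, the desmocollin found in nearly all epithelia, kept within a narrow band in every group. It ranged from 70.3 CPM in Y1 to 92.1 in N2, with means of 90.03 ± 2.90 in N and 78.4 ± 2.25 in EY (SD, n = 2 each). Dsc1, the surface isoform, was close to the limit of detection. The N pair had 3.44 and 0.477 CPM, the E pair 5.76 and 1.116 CPM, the Y pair 0.763 and 2.72 CPM and EY2 0.199 CPM, and EY1 had 0 of 2454816 UMIs, a count that allows up to 1.22 CPM. The libraries of N, E and Y overlapped and EY2 lay below them, while the count of 0 in EY1 does not place it below N2, E2 or Y1. EY against N did not pass (log2 fold change -3.58, SE 1.42, adjusted p = 0.107), nor without EY1 (-3.43, adjusted p = 0.166). The Dsc1 value ran from -8.78 without EY2 to -1.37 without N1, the first resting on the 0 of EY1 and so on the fit's handling of zeros, and 6 of 22 alternatives called it.

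**Figure D1:**
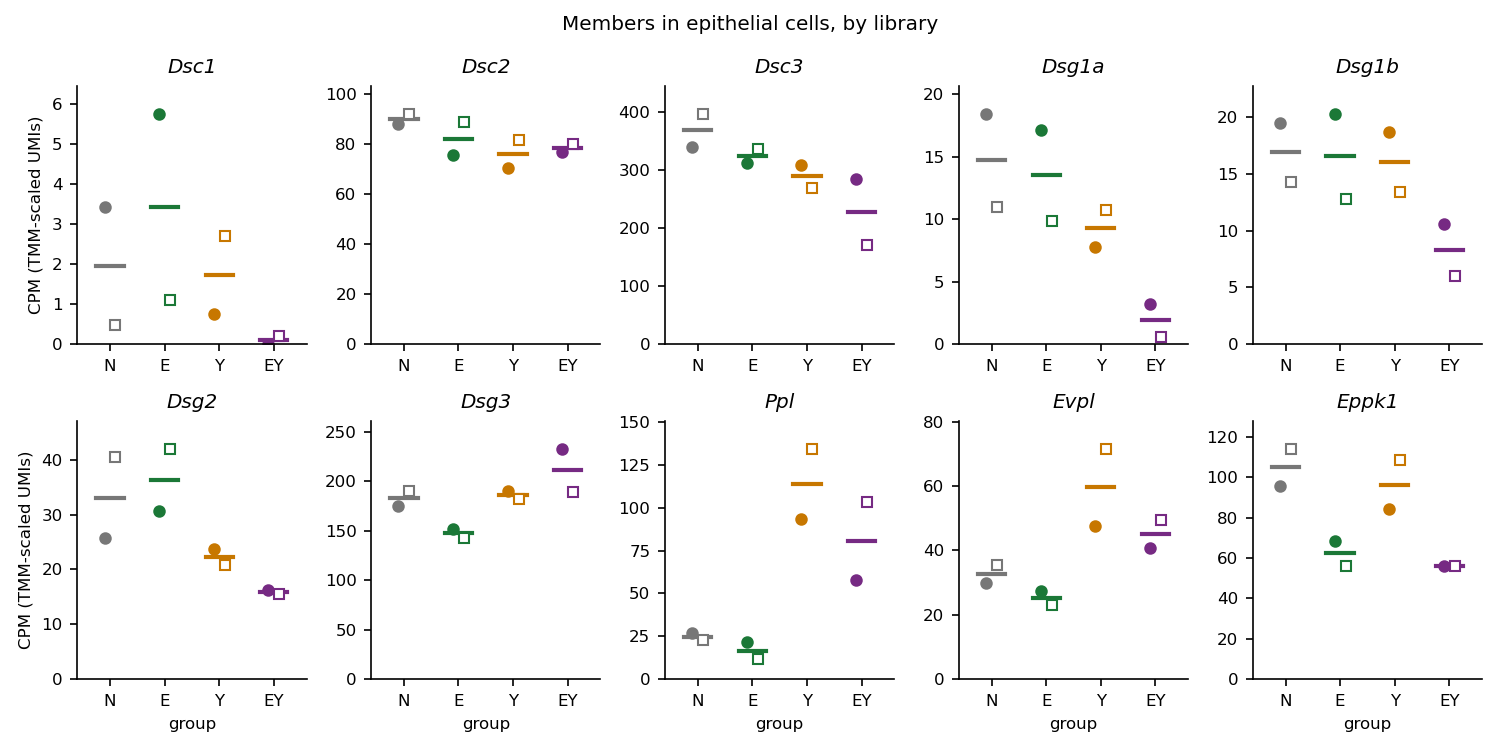
Level of each of the 10 genes in epithelial cells (CPM after TMM scaling, linear axes from 0) by group. Filled circles are replicate 1, open squares replicate 2 and bars the mean of the 2; Ppl and Evpl are higher in Y and EY than in N and E, Dsg2 is lower, and Dsg1a is lowest in EY.

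Dsg1a, a desmoglein of the differentiating layers, stood at 18.4 and 10.96 CPM for the N pair, 17.1 and 9.88 CPM for the E pair, 7.76 and 10.8 CPM for the Y pair, and 3.25 and 0.596 CPM for the EY pair. N and E overlapped, Y lay at their lower edge, and both EY libraries were below all others. The EY values rest on 8 UMIs of Dsg1a in EY1 and 21 in EY2. The N mean of 14.7 ± 5.28 CPM was 7.64 times the EY mean of 1.92 ± 1.88 CPM (SD, n = 2 each). Between EY and N the fitted log2 fold change of Dsg1a was -3.85 (SE 0.74, adjusted p = 0.019), a fit in which the deeper EY2 weighs more than EY1, and it was -4.62 (adjusted p = 0.00916) without EY1. The call was lost without N1 (-3.32, adjusted p = 0.1), without N2 (-4.10, adjusted p = 0.055) and without EY2 (-2.21, adjusted p = 0.142). Its neighbor and related copy Dsg1b showed a similar order of groups with a smaller range. For Dsg1b the N pair gave 19.5 and 14.3 CPM, the E pair 20.3 and 12.8 CPM, the Y pair 18.7 and 13.4 CPM and the EY pair 10.6 and 6.01 CPM. EY lay below the other 6 libraries, and EY against N gave -1.16 (SE 0.37, adjusted p = 0.0641), short of the threshold. Without EY1 it was called (-1.48, adjusted p = 0.0382).

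Dsg2, the desmoglein of basal cells and simple epithelia, reached 25.7 and 40.5 CPM in the N pair, 30.6 and 42.1 CPM in the E pair, 23.8 and 20.8 CPM in the Y pair, and 16.3 and 15.6 CPM in the EY pair. The 4 libraries with YAP did not overlap the 4 without it, although Y1 and N1 were neighbors. With the YAP transgene Dsg2 fell, with a log2 fold change of -0.86 (SE 0.21, adjusted p = 0.0406), as it did in EY against N, -1.05 (SE 0.27, adjusted p = 0.036). The YAP call was lost without N2, E1, E2, Y2, EY1 or EY2 in turn (adjusted p = 0.0832 to 0.1), with values from -0.90 to -0.71. EY against N without EY1 gave -1.04 (adjusted p = 0.0506). It was also lost without N1 (-1.31, adjusted p = 0.0697), N2 (-0.68, adjusted p = 0.158), Y1 (-1.03, adjusted p = 0.0527), Y2 (-1.02, adjusted p = 0.0522) or EY2 (-1.02, adjusted p = 0.196).

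Dsg3, the most abundant desmoglein in these cells and the target of antibodies in pemphigus, showed 175 and 190.5 CPM in the N pair, 152 and 143 CPM in the E pair, 189.9 and 182 CPM in the Y pair, and 233 and 189.6 CPM in the EY pair. The groups overlapped except that both E libraries were lowest. No comparison of Dsg3 passed, and its change with YAP was 0.27 (SE 0.13, adjusted p = 0.195).

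The make-up of the desmoglein transcripts shifted accordingly. Dsg3 contributed 68.8 to 74.3% of the summed Dsg1a, Dsg1b, Dsg2 and Dsg3 UMIs in the libraries without YAP, 79.1 and 80.2% in the Y pair, and 88.6 and 89.5% in the EY pair. Libraries with YAP did not overlap those without it, and both EY libraries lay above both Y libraries. The summed desmoglein level ran from 207 CPM in E2 to 263 CPM in EY1, with 212 CPM in EY2. Dsg2 contributed 10.8 to 20.3% without YAP and 6.17 to 9.92% with it, and Dsg1a 0.281% in EY2. In the desmocollins Dsc3 contributed 76.2 to 81.3% in 7 libraries and 68.1% in EY2. No test was run on these shares, which add to 100% and so move against each other.

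**Figure D2:**
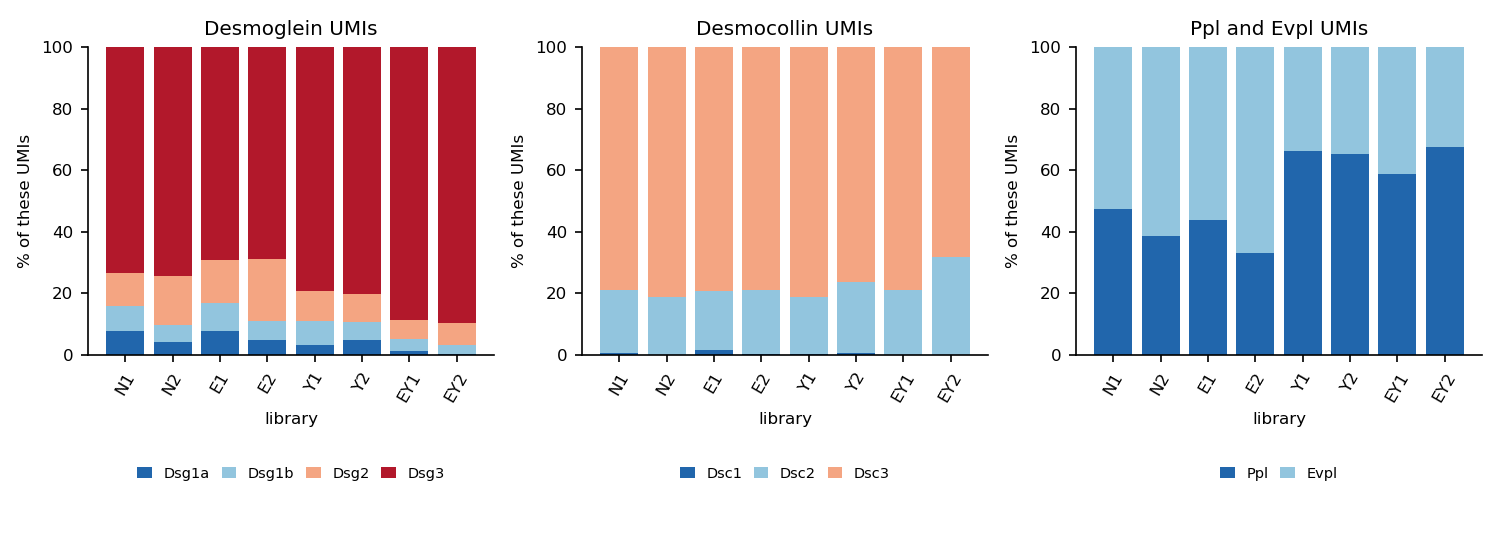
Share (%) of each gene among the desmoglein, desmocollin, and Ppl plus Evpl UMIs of the epithelial cells of each library. Dsg3 is 68.8 to 74.3% in the N and E bars and 88.6 and 89.5% in the EY bars, and Ppl exceeds Evpl only in the Y and EY bars (58.8 to 67.6% against 33.3 to 47.3%).

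Ppl, a plakin of the desmosome and of the cornified envelope scaffold, went from 26.8 and 22.5 CPM in the N pair and 21.5 and 11.6 CPM in the E pair to 93.4 and 135 CPM in the Y pair and 58.1 and 103 CPM in the EY pair. The lowest library with YAP, EY1, was above the highest without it, N1, and the Y and EY libraries overlapped. Ppl rose with the YAP transgene, with a log2 fold change of 2.25 (SE 0.25, adjusted p = 0.00316), from a mean of 20.6 ± 6.44 CPM to 97.3 ± 31.5 CPM (SD, n = 4 each). The call held in each of the 22 alternatives tried, with values from 1.70 to 2.43, and without EY1 it was 2.39 (adjusted p = 0.0108). EY against N gave 1.73 (SE 0.37, adjusted p = 0.0245), and 2.08 (adjusted p = 0.0155) without EY1. That call was lost without N1 (1.90, adjusted p = 0.114), N2 (1.63, adjusted p = 0.119) or EY2 (1.22, adjusted p = 0.159). Y against N had a similar size, 2.20 (SE 0.38), and missed the threshold (adjusted p = 0.0655).

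Evpl, which pairs with Ppl in the envelope, had 29.8 and 35.6 CPM in the N pair, 27.5 and 23.2 CPM in the E pair, 47.6 and 71.7 CPM in the Y pair, and 40.6 and 49.6 CPM in the EY pair. Libraries with and without YAP again did not overlap, with a smaller gap than for Ppl. Evpl rose with YAP by 0.86 (SE 0.16, adjusted p = 0.0175), and by 0.93 (adjusted p = 0.0375) without EY1. The call was lost without N1 (0.83, adjusted p = 0.0564), E1 (0.91, adjusted p = 0.0524), E2 (0.82, adjusted p = 0.0592) or Y2 (0.73, adjusted p = 0.0535). EY against N alone gave 0.48 (SE 0.23, adjusted p = 0.167). Ppl made up 33.3 to 47.3% of the summed Ppl and Evpl UMIs without YAP and 58.8 to 67.6% with it.

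Eppk1, a plakin built of plakin repeats that binds keratin bundles, was lower in libraries with E6-E7, a difference that was not called. Its level was 95.6 and 114 CPM in the N pair and 84.4 and 109 CPM in the Y pair, but 68.3 and 56.3 CPM in the E pair and 56.1 CPM in both EY libraries. The 4 libraries with E6-E7 all lay below the 4 without it. The share of all genes that split in this way by E6-E7 was not counted. The E6-E7 difference was -0.77 as log2 fold change (SE 0.13) and just missed the threshold (adjusted p = 0.0532), with values from -0.97 to -0.65 over the 22 alternatives, 5 of which called it. Eppk1 fell in EY against N by 0.90 (SE 0.18, adjusted p = 0.0213), and by 0.87 (adjusted p = 0.0404) without EY1. This call was lost without N1 (-0.99, adjusted p = 0.0927), N2 (-0.75, adjusted p = 0.115) or EY2 (-0.91, adjusted p = 0.12). E against N gave -0.75 (SE 0.18, adjusted p = 0.412), and the YAP difference was -0.14 (SE 0.12, adjusted p = 0.471).

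**Figure D3:**
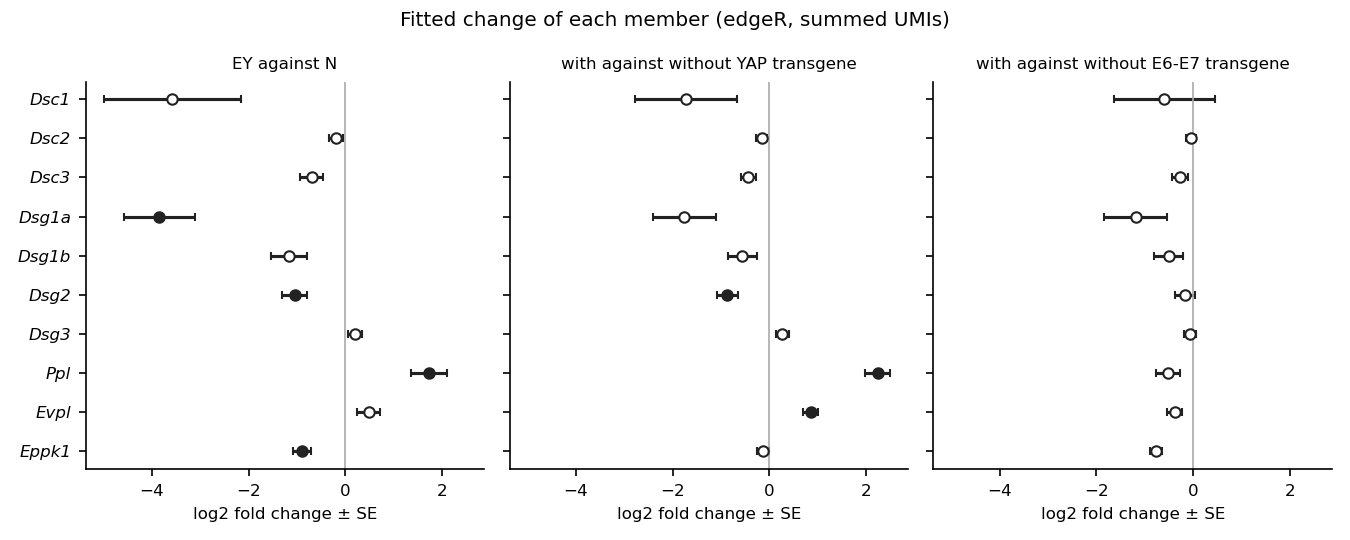
Fitted log2 fold change (point) with its standard error (bar) for each gene in 3 comparisons. Filled points have an adjusted p under 0.05: Dsg1a, Dsg2, Ppl and Eppk1 in EY against N, Dsg2, Ppl and Evpl for the YAP transgene, and none for the E6-E7 transgene.

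Counted over the family, 1 of the 10 genes rose and 3 fell in EY against N at an adjusted p under 0.05, where 9.31% of the 13555 genes tested rose and 9.5% fell. The median log2 fold change of the 10 was -0.80, beside -0.05 for all genes tested. For the YAP transgene 2 rose and 1 fell, against 5.26% and 3.72% of all genes, with medians of -0.29 for the 10 and -0.03 for all. By the cruder measure of 4 libraries that do not overlap the other 4, Ppl and Evpl were higher and Dsc3 and Dsg2 lower, as were 9.41% (higher) and 10.5% (lower) of all genes. No member was called in Y against N (0.384% of genes higher and 0.0738% lower), in E against N (0.236% higher, 0.00738% lower) or for the E6-E7 transgene (0.406% higher, 0% lower). At an unadjusted p under 0.05 these 3 comparisons held 2, 1 and 2 members beside 1649, 506 and 1554 of the 13555 genes, and DESeq2 called 2, 0 and 1 members beside 457, 131 and 293 genes. The 3 comparisons with N share its 2 libraries, and with 2 libraries per group the counts moved strongly with single libraries: none of the 10 was called in EY against N without N1, without N2 or without EY2, and 5 without EY1, while over all genes the calls went from 2550 to 5, 271, 25 and 4061. For YAP the count fell to 1 (Ppl) without E1, E2 or Y2.

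Whether the 2 transgenes together differed from the sum of their separate effects was asked with an interaction term, which called 0% of all genes in either direction and none of the 10. At an unadjusted p under 0.05 it held 2 members, Dsg1a and Dsg3, and 1562 of all genes, and DESeq2 called 0 members and 89 genes. The Dsg3 term was 0.49 (SE 0.21, adjusted p = 0.427), opposite in sign to that of Dsg1a. Without EY1 the interaction called 30 genes and none of the 10. For Dsg1a, with group means (SD, n = 2 each) of 14.7 ± 5.28 CPM for N, 13.5 ± 5.11 CPM for E, 9.26 ± 2.13 CPM for Y and 1.92 ± 1.88 CPM for EY, the term was -3.04 (SE 0.90, adjusted p = 0.356), and -3.78 (adjusted p = 0.0893) without EY1. For Dsc1 it was -3.97 (SE 1.73, adjusted p = 0.44), and -3.77 (adjusted p = 0.325) without EY1.

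Since these genes differ between cell layers, the epithelial cells were split by the share of Krt13, a keratin of the suprabasal tongue, in the summed Krt5, Krt14, Krt15 and Krt13 UMIs: under 10% (low), from 10 to 50% (middle) and at least 50% (high). The low range held 72.0 to 79.3% of the cells in N and E, 60.2 and 58.7% in the Y pair, and 79.4 and 82.9% in the EY pair. The high range held 12.04, 7.23, 10.1, 8.68, 7.84 and 8.79% in N1, N2, E1, E2, Y1 and Y2, but 4.71% in EY1 and 1.68% in EY2, and 8 high cells of EY1 were too few to use. The Y pair lay below and the EY pair above every other library, so the mean over the 4 libraries with YAP (70.3 ± 12.6% against 75.1 ± 3.05% without, SD, n = 4 each, two-sided exact permutation p = 0.457) pools groups that stand on opposite sides and says nothing of either. Krt15 counts in the denominator, and it was lower in EY2 (579 CPM) than in the other libraries (2176 to 4797 CPM).

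Within each library most members were higher in high than in low cells. In all 7 libraries with enough cells 7 of the 10 genes were higher in the high range (8.48% of the 10035 genes tested there), and Dsg2 was lower (18.1% of genes). Ppl had a median log2 difference of 2.84, Dsg1b 2.50, Dsg1a 1.99, Dsc2 1.61, Evpl 1.31, Dsg3 0.52 and Eppk1 0.37, on log2(CPM + 1), and Dsg2 -2.02. Dsc1 was higher in 6 of 7 and Dsc3 in 5 of 7. Dsg3 and, in most libraries, Dsc3 were thus higher in high cells, unlike Dsg2, which is also placed in the deeper layers of the epidermis. The ranges are of a keratin share, and position in the tissue was not measured. In EY2 the difference for Dsg1a was 0.92 and for Ppl 1.25, the smallest of any library for either gene. Samples, not cells, are the replicates here, and no test was run on these within-library differences.

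**Figure D4:**
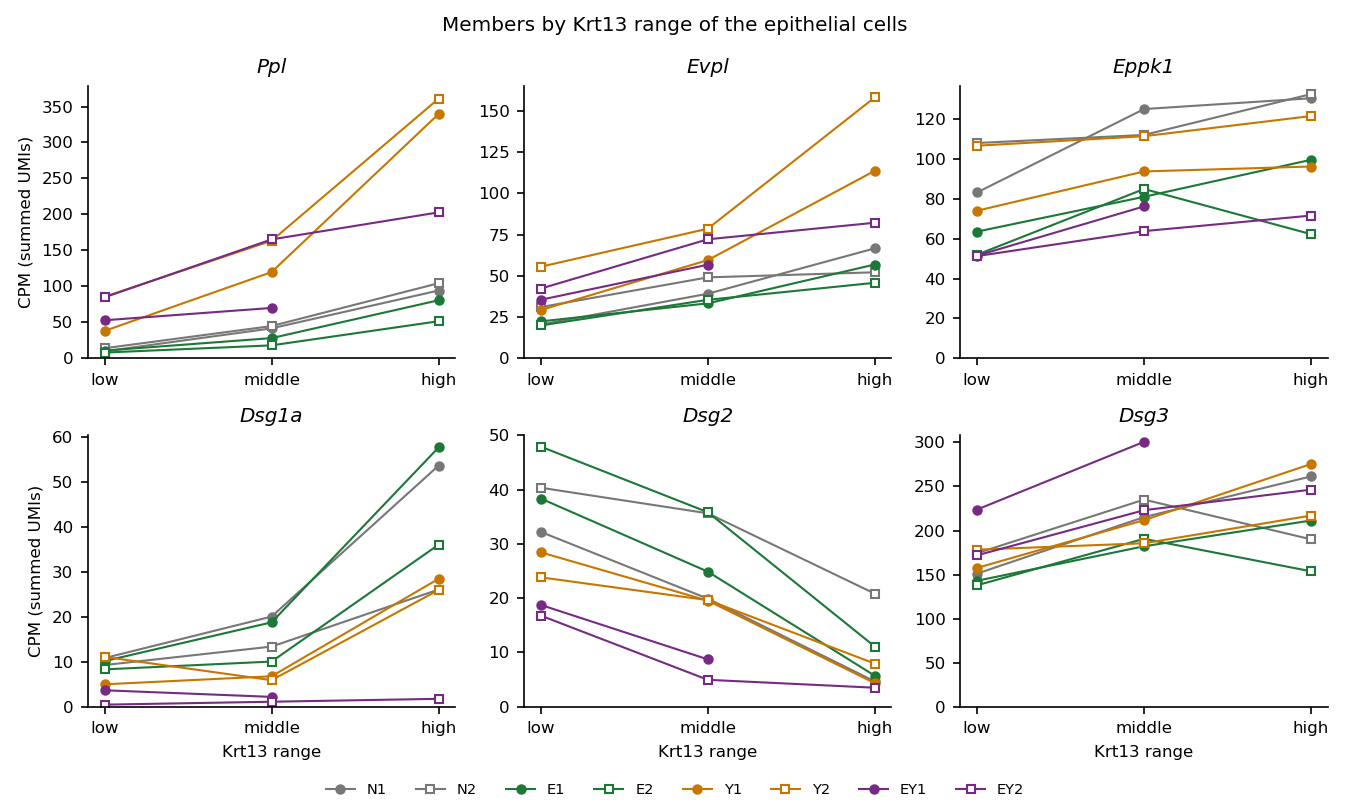
Level (CPM, linear axes from 0) of 6 of the genes in epithelial cells of the low, middle and high Krt13 range, with a line per library, colored by group; circles are replicate 1 and open squares replicate 2, and EY1 has no high point because it held 8 such cells. Ppl climbs from low to high in each line with Y and EY lines above N and E, Dsg2 descends in each line, and the Dsg1a lines of EY stay near 0.

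Ppl was called in each range, and Evpl in the middle one. Ppl in low cells gave 9.39 and 13.7 CPM for the N pair, 10.3 and 7.64 CPM for E, 37.8 and 85.3 CPM for Y, and 52.6 and 84.7 CPM for EY. No library overlapped between those with and without YAP, and Ppl rose by 2.72 (SE 0.32, adjusted p = 0.00383), with Dsg2 falling by 0.83 (SE 0.19, adjusted p = 0.0367). These were the only calls among the 9 members tested in low cells, where 4.75% of genes rose and 2.75% fell. The Dsg2 call in low cells was lost without N2, E1, E2, Y2, EY1 or EY2 (-0.84 to -0.70, adjusted p = 0.0751 to 0.0997). In middle cells Ppl rose by 2.12 (SE 0.29, adjusted p = 0.00339) and Evpl by 0.86 (SE 0.17, adjusted p = 0.0186), and Dsg1a fell by 2.06 (SE 0.41, adjusted p = 0.0196), against 4.29% of genes higher and 2.43% lower. The Evpl call there was lost without N1, E1, E2, Y2 or EY2 (0.68 to 0.83, adjusted p = 0.0561 to 0.0928) and the Dsg1a call without N1 (-2.19, adjusted p = 0.0615). Ppl in high cells gave 94.0 and 104 CPM for the N pair, 80.4 and 51.2 CPM for E, 339.6 and 361 CPM for Y, and 203 CPM for EY2. Ppl rose there by 1.67 (SE 0.19, adjusted p = 0.00888) and was the 1 member called, against 0.977% of genes higher and 0.239% lower, and without EY2 the value was 1.75 and was not called (adjusted p = 0.0801). Evpl gave 0.84 (adjusted p = 0.0593) in low and 0.91 (adjusted p = 0.0823) in high cells, and Eppk1 was not called for YAP in any range. Differences between the ranges in the size of the YAP effect were not tested.

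EY against N in low cells called the same 4 genes as in all epithelial cells: Ppl rose by 2.65 (SE 0.45, adjusted p = 0.0137), and Dsg1a fell by 3.43 (SE 0.83, adjusted p = 0.0304), Dsg2 by 1.02 (SE 0.22, adjusted p = 0.0228) and Eppk1 by 0.88 (SE 0.24, adjusted p = 0.0395), where 9.99% of genes rose and 9.93% fell. In low cells Dsg1a was at 10.8 and 9.25 CPM for the N pair, 10.1 and 8.29 CPM for E, 4.98 and 11.1 CPM for Y, and 3.64 and 0.452 in EY. EY was again lowest, and Y overlapped N and E. Leaving out N1, N2 or EY2 ended each of these 4 calls, and without EY2 the Dsg1a value was -1.49 (adjusted p = 0.257). The calls for Dsg1a and Eppk1 were also lost without E1 or E2 (adjusted p = 0.0503 to 0.0626), and that for Eppk1 without EY1 (-0.83, adjusted p = 0.0833). Without EY1 Ppl was 2.97 (adjusted p = 0.0117), Dsg1a -4.39 (adjusted p = 0.00945) and Dsg2 -1.04 (adjusted p = 0.0281). In middle cells EY against N called the same 4 genes, beside 1314 of 11610 genes tested there (Ppl 1.60, Dsg1a -3.77, Dsg2 -2.18, Eppk1 -0.76). Each of these calls was lost in some fits without 1 library. In high cells EY had 34 cells of EY2 alone, so values only are given: Ppl 0.87, Dsg1a -4.72, Dsg2 -1.50 and Eppk1 -1.04. The 3 ranges were also weighted equally in each library, in a fit with limma on log2(CPM + 1). Its values thus differ from those above in the test as well as in the weighting. In EY against N it gave Dsg1a at -2.97 (adjusted p = 0.00946) and Eppk1 at -0.86 (adjusted p = 0.0264). Ppl was at 0.90 (adjusted p = 0.169) in EY against N and at 1.70 (adjusted p = 0.00964) for YAP. Both Dsg2 calls were lost in this fit, with -1.13 (adjusted p = 0.0643) in EY against N and -0.87 (adjusted p = 0.0777) for YAP. Dsg1b was called in EY against N (-1.12, adjusted p = 0.0257). EY1 entered that fit with 2 of the 3 ranges, so the shares of the ranges were not evened out for it.

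The share of cells with a UMI was compared after each cell was thinned to 2000 UMIs. Ppl was found in 2.17 to 5.30% of cells in the libraries without YAP and 10.7 to 18.0% in those with it, and in 0.109 to 0.941% of immune cells of the same libraries, which should lack it. Unthinned the shares were 14.5 to 20.7%, 36.5 to 63.5% and 0.310 to 2.97%, at median UMIs of 12575 to 23570 in epithelial and 3373 to 10871 in immune cells. Evpl shares overlapped, with 4.89 to 7.95% of thinned cells without YAP and 6.51 to 10.8% with it, although its levels did not. Dsg1a was found in 2.54 to 3.37% of thinned cells without YAP and 1.16 and 1.40% in the Y pair, whose levels did overlap, but in 0.148% in EY2 and in 0 of 169 cells in EY1, which allows a share of up to 1.78%. Immune cells gave 0 to 0.467% for Dsg1a over all libraries and 0% in both EY libraries, so the thinned EY shares lay within the range of this background, and unthinned they were 0.937% in EY2 and 2.94% in EY1 against 11.6 to 13.3% without YAP. Dsg2 was in 5.66 to 7.05% of thinned cells without YAP and 1.78 to 5.20% with it, and Dsg3 in 24.3 to 30.1% over all libraries. Dsc3 was in 45.1 to 47.9% without YAP and 27.2 to 40.9% with it. Thinning left out at most 2 epithelial cells of a library, and the intervals of such shares cover counting error only.

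The partners of these cadherins inside the desmosome were taken as a list. Of 7 plaque genes, which include plakoglobin (Jup), desmoplakin (Dsp), the plakophilins and Perp, 1 rose and none fell both with YAP and in EY against N, with medians of 0.20 and 0.00. That gene was Pkp2, the plakophilin of simple epithelia and heart, which rose by 3.50 (SE 0.56, adjusted p = 0.011) with YAP. It was at 0.336 to 0.477 CPM in the libraries without YAP and 1.57 to 9.16 CPM with it. The 2 sets did not overlap, but the gene was rare in all of them. Jup was at 230.0 and 289 CPM in N and 338 and 319 in EY, and its YAP difference of 0.40 (SE 0.11) did not pass (adjusted p = 0.0538). Its mean was 333 CPM with and 253 CPM without YAP, and that of Perp, a membrane protein of the desmosome, was 1383 and 1078 CPM (adjusted p = 0.0564). For both genes the 4 libraries with YAP lay above the other 4 without overlap. Among the other plakins Plec, which ties keratin to hemidesmosomes, fell by 0.55 (SE 0.16, adjusted p = 0.0489) in EY against N, the 1 call in a list of 4.

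Other junction genes stood beside them as follows for the YAP transgene. Of 13 tight junction genes 5 rose and none fell (median 0.95), led by the claudins Cldn1 (3.89, SE 0.52, adjusted p = 0.00588) and Cldn4 (2.72, SE 0.36, adjusted p = 0.0054), with Cgn and Marveld3 among them. Of 9 adherens junction genes 3 rose and 2 fell (median 0.29): Cdh1, the classical cadherin of epithelia, rose by 0.56 (SE 0.10, adjusted p = 0.0149), Afdn rose by 0.72, and Ctnnb1 and Nectin1 fell by 0.61 and 0.45. Of 9 tested envelope genes, the proteins and enzymes with which Ppl and Evpl are built into the envelope, 2 rose and 1 fell (median 0.15): Sprr1b rose by 1.65, the transglutaminase Tgm1 also rose, and Csta1 fell by 2.21. A list of 8 tested genes held Cdsn, which encodes an adhesion protein, and proteases and inhibitors that act on desmosomes outside the cell. Of these 4 rose and none fell (median 1.28), and those that rose included the kallikrein Klk10 by 1.97 and its family's inhibitor Spink5 by 1.91. Of 11 keratins 1 rose, Krt17 by 1.61, and none fell. Of 9 tested transcription factors linked to desmosomal genes 1 rose, Prdm1 by 1.98. All these lists were chosen with earlier results of these data known, so their counts are a description.

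**Figure D5:**
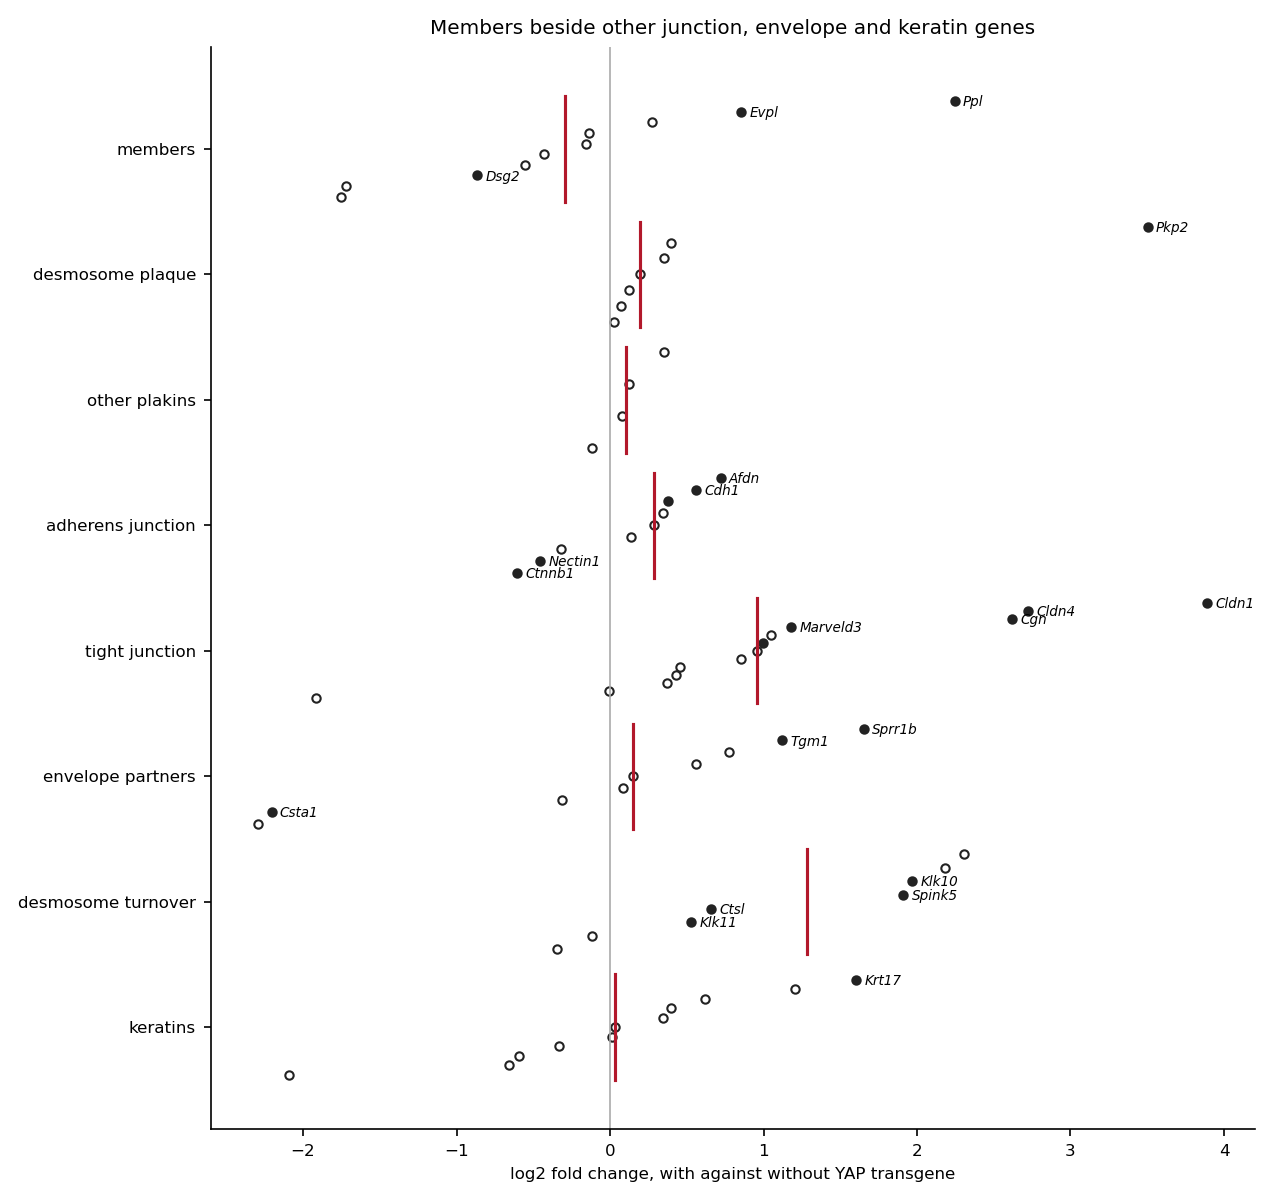
Fitted log2 fold change with against without the YAP transgene for each tested gene (points) of 8 lists, with list medians (red bars). Filled points have an adjusted p under 0.05 and up to 4 of them are named per list; the tight junction list has its median at 0.95, the plaque list at 0.20 and the 10 cadherins and plakins at -0.29.

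The members whose levels ran most nearly together over the 8 libraries were Ppl and Evpl (Pearson's r 0.95 on log2(CPM + 1)) and the neighbors Dsg1a and Dsg1b (r 0.92), and the most opposed were Ppl and Dsg2 (r -0.82). Among tested genes whose mean reached 20 CPM, Ppl was most like Sbsn, which encodes a secreted protein of the suprabasal layers (r 0.996), and Pawr (r 0.98). Evpl was most like Tmem43 and Wnt7b (both r 0.97), Dsg2 most like Ext2 and Tcf3 (both r 0.97), and Dsg1a most like Ptpra and Rab15 (both r 0.97). Dsg1b was most like Glg1 (r 0.96) and Epc2 (r 0.95), Dsg3 most like Vasp (r 0.94) and Snx4 (r 0.93), and Eppk1 most like Ndst1 and Arhgap32 (both r 0.93). Dsc3 was most like Senp6 and R3hdm4 (both r 0.99), Dsc2 most like Fat1 (r 0.89) and Sike1 (r 0.88), and Dsc1 most like Stmn1 (r 0.98) and Mif4gd (r 0.96). These are the highest values out of all such genes, over 8 libraries that share their groups, and they are given without a p.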

How the data were processed

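The authors aligned and counted the reads with Cell Ranger 5.0.0 on mm10, and the deposited matrices hold unscaled UMI counts for each gene and cell barcode in each library. The labels name kit v2, the study's methods a later version, and doublets were treated only by the upper limits on genes and UMIs. The study's limits on cells (1000 to 5500 genes, 30000 UMIs, 7% mitochondrial UMIs) were applied, the epithelial rule was applied, and counts were summed per library (2454816 to 55154619 UMIs), so that libraries and not cells were the replicates. P-values measure the spread between these libraries, 2 to a group. Sums were tested with edgeR 4.0.16 (filterByExpr, TMM scaling, quasi-likelihood test, all 8 libraries in the fit) with Benjamini-Hochberg adjustment over all 13555 genes tested and a threshold of 0.05. CPM were scaled by TMM library size, and those of the Krt13 ranges by the UMIs of that range. SE was taken from the log2 fold change and the F statistic. The YAP and E6-E7 differences came from an additive model of both transgenes. DESeq2 1.42.0, limma 3.58.1 on log2(CPM + 1), other cell limits and leaving out libraries were alternatives, and code was tested on simulated data. Limma was the test wherever each cell or each Krt13 range was weighted equally. Python 3.11.15 with numpy 2.4.6, scipy 1.17.1 and pandas 2.3.3 was used, R was 4.3.3, and matplotlib 3.10.9 drew the figures. Gene positions are those of GENCODE on GRCm38. Ranges needed at least 20 cells in a library. The members, lists and ranges were chosen with earlier results of these data known. All 10 members are named, and from the other lists at most 4 called genes each, by size. The 2 most similar genes were sought among tested genes averaging 20 CPM or more. Shares carry exact Clopper-Pearson 95% intervals in the tables, and a count of 0 was read against 3 counts. Intervals cover counting error only.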

Additional observations from a re-analysis of the deposited data

Results flagged for a closer look

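Of 42 groups of 4 libraries examined, 2 held a library whose gap to its nearest neighbor exceeded Dixon's 95% critical value, and chance alone gives about 1 in 20. Dsg3 was at 233 CPM in EY1, beside 182 to 189.9 CPM in the other 3 libraries with the YAP transgene. Eppk1 was at 68.3 CPM in E1, beside 56.1 to 56.3 CPM in the other 3 libraries with the E6-E7 transgene, and its log2 difference between libraries with and without E6-E7 was -0.83 without E1 against -0.77 with it.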

How the results depend on the processing

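No paired analysis was run because the replicate numbers follow the order of the samples and the labels tie none of them to a shared animal or batch. Replicate 1 had more epithelial cells than replicate 2 in N (3447 and 415), E (4055 and 553) and Y (1289 and 1001), and fewer in EY (170 and 2027). Whether libraries with the same replicate number shared a preparation was not tested. The number of the 10 genes called in EY against N (4) became 8 without upper limits on genes and UMIs, 7 without any limits on cells, 7 without a filter on low counts, 7 with each cell weighted equally, 2 in cells with no immune marker UMI (a setting that leaves out EY1), and 0 to 5 on leaving out 1 library. For YAP (3) it became 7, 7 and 6 under the first 3 of these settings, 1 in cells with no immune marker UMI, and 1 to 3 without 1 library. In Y against N (0) it became 2 without upper limits, 1 with a mitochondrial limit of 15%, 3 without any limits, 1 with keratins at 2% or more, 2 without the filter, 2 with DESeq2 and 1 with cells weighted equally. For E6-E7 (0) it became 2 without the filter and 1 each with keratins at 2% or more, with no gland marker UMI, with DESeq2, and in cells with no UMI of immune markers other than S100a8, S100a9 and Cd74, a setting chosen after seeing the data. Without the filter E against N gave 1 and the interaction 2. In low Krt13 cells the YAP count (2) became 4 without the filter, 6 without upper limits, 6 without any limits and 1 to 3 without 1 library, and in high cells (1) it became 3, 4, 3, 2 with DESeq2, and 0 to 1. Over all genes, calls went from 2550 to 6042 in EY against N and from 1217 to 6131 for YAP without upper limits, and DESeq2 gave 2958 and 2762. The direction turned for Dsg3 in EY against N, to -0.050 with keratins at 2% or more and -0.30 with no immune marker UMI, and for Dsg2 in high cells with keratins at 2% or more, to 0.58 for YAP and 0.98 for EY against N. The difference in the share of low cells turned to 2.86 percentage points without limits on cells (exact permutation p = 0.743). The cause of these shifts was not tested. EY1, with 170 cells, limits what can be said of rare transcripts in EY.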
